A study of Mus musculus with 2 samples.

Results

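The fibroblast growth factor (FGF) system of the mouse embryonic hindbrain is described here through 38 genes, chosen by symbol: the 22 Fgf genes, the receptor genes Fgfr1 to Fgfr4 and Fgfrl1, and 11 genes that are targets or feedback regulators of FGF signalling. Of these, 37 were measured, among 43346 Ensembl genes in the tables, and Spry3 was not analysed here. The rule names the genes and uses no level. RNA was sequenced from hindbrain of strain B6NCrl embryos at embryonic day 13.5, with male and female embryos pooled, in 2 libraries, biological replicates 1 and 2 by their labels. Each began with 10 ng of total RNA longer than 200 nt, extracted by the mirVana method, and contained ERCC spike-ins, which are synthetic control RNAs. Both libraries share a donor label and differ in their biosample label, and nothing in the labels says that they came from separate litters, so part of their spread may be technical. They form a single group, with no treatment or mutant allele named in the labels, and the comparisons below are between genes and between the 2 libraries.

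FGF ligands are secreted proteins that bind receptor tyrosine kinases together with heparan sulfate, and the bound receptor signals mainly through the Ras-MAPK cascade. That cascade raises the transcription of its own inhibitors, the Sprouty and Spred proteins and the phosphatase Dusp6, and of the ETS-family transcription factors Etv1, Etv4 and Etv5, so the RNA of these genes is commonly used as a readout of the pathway. In the hindbrain FGFs are known for their role in the organizer at the boundary with the midbrain, in the identity of the rhombomeres and in induction of the inner ear. A separate branch of the family, the FGF homologous factors, is not secreted and binds voltage-gated sodium channels inside neurons.

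Values are TPM, a gene's share of all transcripts corrected for its length, with the mean ± SD over both libraries (n = 2). The libraries held 33080194 and 38756411 estimated counts, of which spike-ins took 2.31% and 2.54%. The marker genes went with the tissue label: all 10 hindbrain genes were detected, with Meis1 highest at 172.79 and 173.25 TPM, while 2 of 8 forebrain genes were detected, Lhx2 at 19.19 and 17.98 TPM and Dlx5 at 1.56 and 1.04, and the forebrain regulator Emx1 had 0.07 and 0.04. All 8 neuronal and all 8 neural progenitor markers were detected, as were 7 of 8 choroid plexus, 8 of 8 meningeal and mesenchymal, 5 of 5 endothelial and 4 of 4 erythroid markers, so the RNA came from several cell types. In such bulk tissue, fewer cells of a type and less RNA per cell cannot be told apart.

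A level of at least 1 TPM in both libraries, here called detected, was reached by 24 of the 37 measured genes. The same rule was passed by 35.4% of all Ensembl genes and by 62.2% of protein-coding genes. The classes differed in this respect. Among the secreted ligands 6 of 18 were detected, against all 4 intracellular FGFs, 3 of 4 receptor kinases and all 10 measured feedback genes. The median level was 0.655 TPM for the 15 paracrine ligands, 13.5 for the intracellular FGFs, 27.1 for the receptor kinases and 6.09 for the feedback genes, beside 3.36 for all genes with a count in either library. On the log2(TPM + 1) scale the receptor kinases exceeded the paracrine ligands by 3.91 in replicate 1 and 4.24 in replicate 2, a mean difference of 4.07 ± 0.23 (SD, n = 2) between class medians.

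**Figure D1:**
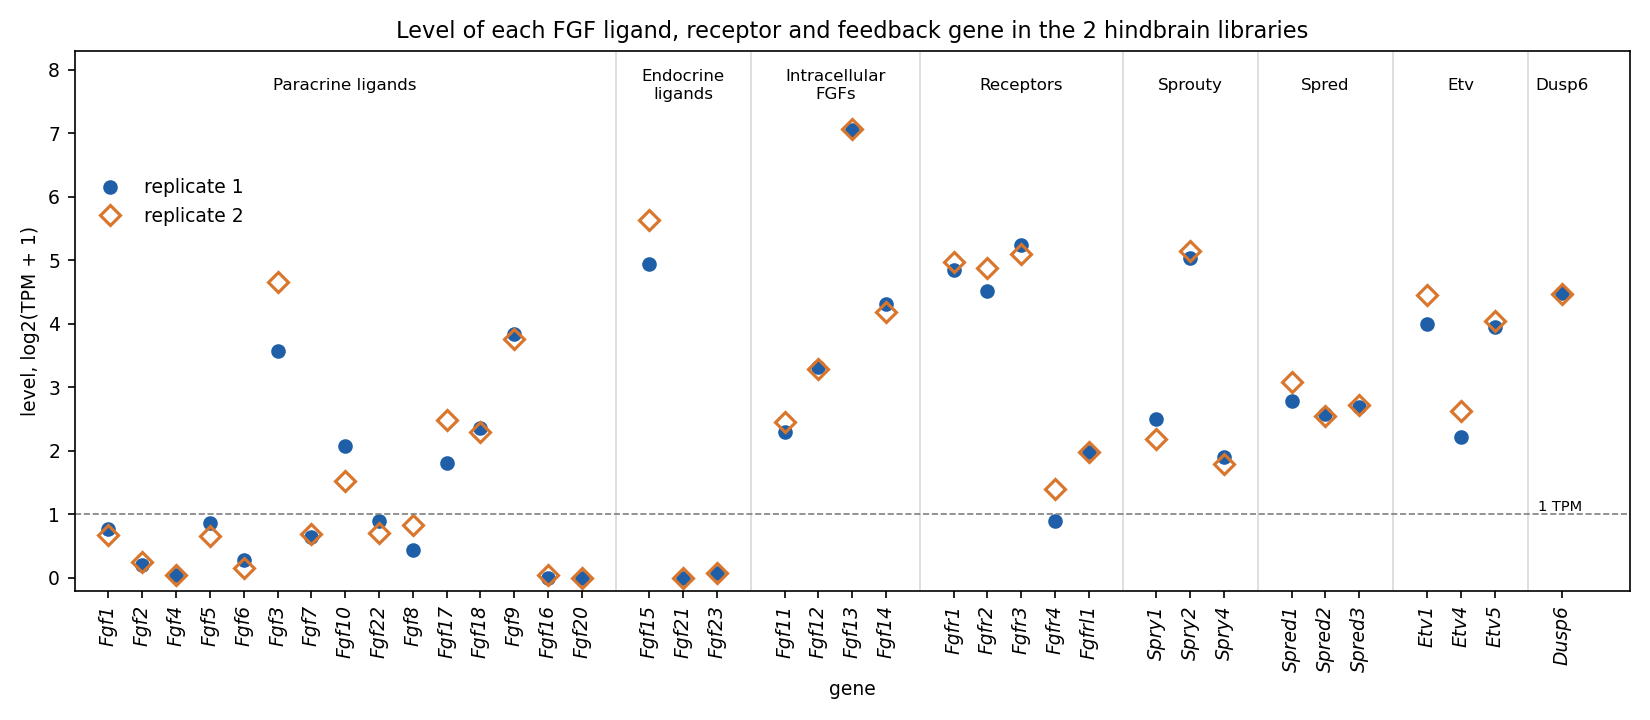
Level of each of the 37 measured genes as log2(TPM + 1) on the vertical axis, with genes on the horizontal axis ordered by class. Filled circles are replicate 1, open diamonds replicate 2, and the dashed line marks 1 TPM. Most paracrine ligands lie below that line, and the feedback genes all lie above it.

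Fgf15, Fgf3 and Fgf9 made up most of the secreted ligand RNA. Fgf15 is known in the embryo as a ligand of the developing neural tube and in the adult as a hormone of the intestine. It had 29.86 TPM in replicate 1 and 48.81 in replicate 2, on 1055 and 2036 estimated counts. Fgf3, a ligand of hindbrain segments that takes part in ear induction, had 10.95 and 24.25 TPM on 467 and 1168 counts. Both genes were thus well above 1 TPM in each library, and both were higher in replicate 2. Fgf9, which in the developing cerebellum is a neuronal signal to glial precursors, had 13.26 and 12.55 TPM, values that lie close together. Together these 3 genes held 79.9% of the summed TPM of the 18 secreted ligands in replicate 1 and 86.0% in replicate 2, or 82.9% ± 4.31 (SD, n = 2). Fgf15 alone held 46.6% ± 3.47 (SD, n = 2).

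The other detected secreted ligands were Fgf18, Fgf17 and Fgf10. Fgf18, a ligand of the Fgf8 subfamily known mainly for skeletal growth, had 4.11 and 3.89 TPM. Fgf17, a member of the same subfamily that acts at the midbrain-hindbrain boundary, had 2.50 and 4.59. Fgf8, the principal ligand of that boundary at earlier stages, had 0.36 and 0.78 TPM on 7 and 16 counts and was not detected by the rule above. Its deposited TPM intervals, 0.351 to 1.19 in replicate 1 and 0.642 to 1.62 in replicate 2, overlap and reach past 1 TPM, so that a level near 1 TPM could not be told from the estimate at this depth. Fgf10, a mesenchymal ligand of the limb and lung, had 3.23 TPM in replicate 1 and 1.87 in replicate 2.

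The remaining 12 secreted ligands were low or without counts. Fgf1, a ligand that binds all FGF receptors, had 0.71 and 0.60 TPM, Fgf5 had 0.83 and 0.58, Fgf7, a mesenchymal ligand for epithelial receptors, had 0.56 and 0.61, and Fgf22, a synaptic organizer, had 0.87 and 0.63. Fgf22 rested on 7 and 6 counts and overlaps Rnf126 on the opposite strand, which had 65.05 and 66.33 TPM. Fgf2 had 0.15 and 0.19 TPM, Fgf6 had 0.21 and 0.11, and Fgf4 had 0.03 and 0.03. The deposited intervals of Fgf1 were 0.763 to 2.63 and 0.695 to 2.31 TPM, and those of Fgf2 0.366 to 1.70 and 0.319 to 1.52. For both genes the TPM lay below its interval in each library. Upper bounds also passed 1 TPM in both libraries for Fgf7 (1.08 and 1.07) and Fgf22 (1.64 and 1.27), and in replicate 1 for Fgf5 (1.07). A level near 1 TPM could thus not be told from these estimates. The hormone Fgf23, which regulates phosphate, had 0.06 and 0.05 on 2 counts in each library. Fgf16 had 0 counts in replicate 1 and 1 in replicate 2. Fgf20 and the hormone Fgf21 had 0 counts in both libraries, which allows up to 0.156 and 0.132 TPM for Fgf20 and up to 0.175 and 0.148 TPM for Fgf21, taking 3 counts as the limit. Such limits take in counting error alone. The deposited intervals reach higher for Fgf20, to 0.496 and 0.477 TPM, and to 0.170 and 0.144 for Fgf21. Beside the 6 of 18 secreted FGFs, 10 of 19 Wnt ligands were detected, from Wnt7b at 30.62 and 35.96 TPM and Wnt5a at 20.69 and 28.83 to Wnt11 at 1.83 and 1.57. Of the BMP and TGF-beta ligands 13 of 28 were detected, from Tgfb2 at 18.73 and 16.66 and Bmp7 at 10.12 and 10.04 to Bmp2 at 1.93 and 1.28. These families had median levels of 1.70 and 0.922 TPM beside 0.62 for the secreted FGFs. The summed levels were 83.6 ± 22.5 TPM for secreted FGFs, 95.02 ± 14.9 for Wnt and 80.9 ± 0.325 for BMP and TGF-beta ligands (SD, n = 2), differences smaller than the spread of the FGF sum.

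Fgf3, Fgf4 and Fgf15 lie side by side on chromosome 7 in GRCm38. Fgf3 (ENSMUSG00000031074.10) occupies chr7:144838083-144844436, Fgf4 (ENSMUSG00000050917.4) chr7:144847367-144865243 and Fgf15 (ENSMUSG00000031073.5) chr7:144896531-144900953, all on the plus strand and with no other gene annotated between them. The window spans 62.871 kb, with gaps of 2930 and 31287 bases. Fgf4, between the other two, was at 0.03 TPM in both libraries while its neighbours were at 10.95 to 48.81. Fgf6 and Fgf23 also neighbour each other, 44.714 kb apart on chromosome 6, and neither was detected.

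The intracellular FGFs exceeded the secreted ligands in summed level. Fgf13 (ENSMUSG00000031137.13, chrX:59062145-59568071, minus strand), which modulates sodium channels and binds microtubules in neurons, had 131.32 and 133.33 TPM and was the highest of the 37 genes. It stood at percentile 95.1 among genes with a count. Fgf14, a sodium channel partner of cerebellar neurons, had 18.79 and 17.28 TPM. Fgf12 had 8.96 and 8.78, and Fgf11 had 3.91 and 4.49. The 4 genes summed to 163 ± 0.636 TPM (SD, n = 2), against 83.6 ± 22.5 for all 18 secreted ligands, and in each library the first sum was the greater (162.98 against 67.69, and 163.88 against 99.57). Fgf13 held 81.0% ± 0.554 of the intracellular sum (SD, n = 2). All 5 genes listed as partners of these factors were detected: the scaffold Mapk8ip2 had 65.16 and 60.12 TPM, the sodium channel genes Scn3a 46.65 and 41.65, and Scn8a, the lowest, 8.45 and 7.58.

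**Figure D2:**
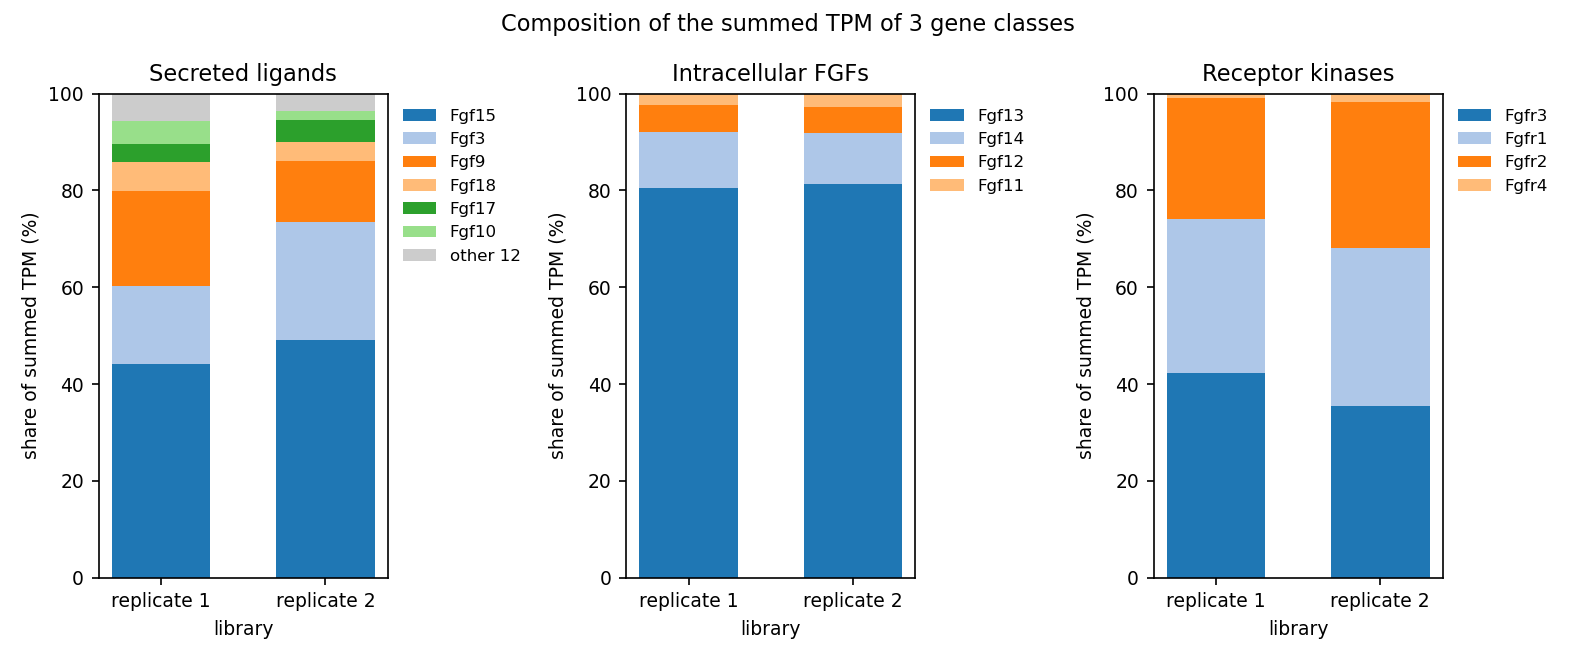
Share of the summed TPM, in percent on the vertical axis, that each gene contributed in replicates 1 and 2, for secreted ligands, intracellular FGFs and receptor kinases. The 12 secreted ligands with the smallest shares are pooled in grey. Fgf15, Fgf3 and Fgf9 fill 79.9% and 86.0% of the first pair of bars, Fgf13 about 81.0% of the second pair, and 3 receptors share the last.

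Alternative first exons give FGF homologous factors different N-termini, which changes how they act on sodium channels. Transcripts of Fgf13 fell into 4 start regions. The region farthest upstream, with 5 transcripts, held 46.9% and 42.4% of the gene's TPM, the single transcript Fgf13-202 held 34.9% and 41.4%, and Fgf13-201 held 17.8% and 16.1%. The fourth region held 0.396% and 0%. The upstream region and Fgf13-202 came to 44.7% ± 3.15 and 38.2% ± 4.62 (SD, n = 2), and the former was ahead in each library. The order depends on length correction, since 2 transcripts of the upstream region are short (Fgf13-206 at 456 and Fgf13-205 at 575 bases). By estimated counts Fgf13-202 led, with 1886 and 2685, while the upstream region had 1190 and 1186 and Fgf13-201 had 1159 and 1260. Fgf14 was less mixed, with Fgf14-202 at 91.1% and 88.4% and Fgf14-201 at 8.89% and 11.6%. Fgf12 had 1 transcript in the tables, so its first exons were not compared.

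Fgfr3, Fgfr1 and Fgfr2 carried nearly all receptor kinase RNA. Fgfr3, a receptor of ventricular zone progenitors and glial precursors in the brain, had 36.96 TPM in replicate 1 and 33.31 in replicate 2. Fgfr1, the receptor on which midbrain and hindbrain patterning most depends, had 27.86 and 30.47, and Fgfr2 had 21.90 and 28.30. The order Fgfr3, Fgfr1, Fgfr2 was the same in both libraries, but the values of the neighbours Fgfr1 and Fgfr2 overlapped between libraries, at 29.2 ± 1.85 and 25.1 ± 4.53 (SD, n = 2), so this pair was not separated beyond its spread. That overlap turns on the transcript Fgfr2-217, which starts within another gene and without which Fgfr2 had 16.17 and 21.69 TPM and lay under Fgfr1 in both libraries. Fgfr3, at 35.1 ± 2.58, was above Fgfr1 in each library. Fgfr4, a receptor of muscle and endoderm, had 0.87 and 1.64 TPM on 58 and 84 counts and held 1.37% ± 0.535 of the receptor sum (SD, n = 2). Fgfrl1, which lacks the kinase domain, had 2.93 and 2.94.

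The third immunoglobulin-like (Ig) domain of Fgfr1, Fgfr2 and Fgfr3, the part of the receptor that selects its ligands, is encoded in its second portion by either of a pair of exons. The IIIb exon is typical of epithelia and, in Fgfr2, binds ligands of the Fgf7 subfamily. The IIIc exon is typical of mesenchyme and neural tissue and binds ligands of the Fgf8 and Fgf9 subfamilies. The exon pair of Fgfr3 is shown because its sequence is what sets the forms of the receptor apart, as given by GENCODE M21 transcripts on GRCm38 and written 5′ to 3′. Both exons are coding and lie on the plus strand, IIIb at chr5:33731281-33731431 and IIIc downstream at chr5:33732117-33732261. Capitals mark the 68 bases that are identical in the aligned pair.
Fgfr3 IIIb: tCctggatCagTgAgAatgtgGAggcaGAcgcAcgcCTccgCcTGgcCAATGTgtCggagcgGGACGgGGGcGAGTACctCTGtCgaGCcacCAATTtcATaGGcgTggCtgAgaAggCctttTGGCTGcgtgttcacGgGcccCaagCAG
Fgfr3 IIIc: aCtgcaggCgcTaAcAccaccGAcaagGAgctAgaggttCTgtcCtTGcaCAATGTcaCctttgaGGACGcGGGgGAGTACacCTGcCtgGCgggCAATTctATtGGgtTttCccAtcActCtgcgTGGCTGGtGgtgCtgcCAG
The exons, 151 and 145 bases long, were 44.2% identical over their alignment, so the forms differ at many positions within the exon.

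The IIIc form was the major form of all 3 receptors. For Fgfr1, transcripts with the IIIc exon had 1738 and 2307 estimated counts and those with the IIIb exon alone had 0, which allows a IIIb share of up to 0.173% and 0.130% for counting error. With the deposited posterior mean in place of TPM the IIIc share of Fgfr1 was 98.1%, which leaves more for IIIb than that limit. For Fgfr2 the IIIc share was 85.7% in replicate 1 and 83.2% in replicate 2, or 84.5% ± 1.73 (SD, n = 2). For Fgfr3 it was 90.1% and 96.4%, or 93.3% ± 4.41 (SD, n = 2). The IIIb form of Fgfr2, at 1.59 and 2.61 TPM, and that of Fgfr3, at 3.20 and 1.07, were therefore present in the estimates of both libraries. For Fgfr3 the IIIb value rested on the single transcript Fgfr3-211. The retained-intron transcript Fgfr3-205, at 1.54 and 1.38 TPM, contains all 151 IIIb bases and the IIIc exon and is outside the IIIc shares. These shares are assignments made upstream from all reads of a transcript, not counts of reads over the exon. Transcripts that do not tell the forms apart held 26.1% and 22.4% of Fgfr1 TPM, 49.2% and 45.0% of Fgfr2 and 12.2% and 11.2% of Fgfr3. Among them, Fgfr1-208, annotated for nonsense-mediated decay, carries both exons and had 1.17 and 0.52 TPM on 35.43 and 18.73 counts. The retained-intron transcript Fgfr1-206, with 3.92 and 4.51 TPM, contains 120 of the 151 IIIb bases of Fgfr1 together with the whole IIIc exon. The 0 therefore covers transcripts with the IIIb exon in place of IIIc, not all transcripts that hold IIIb bases.

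**Figure D3:**
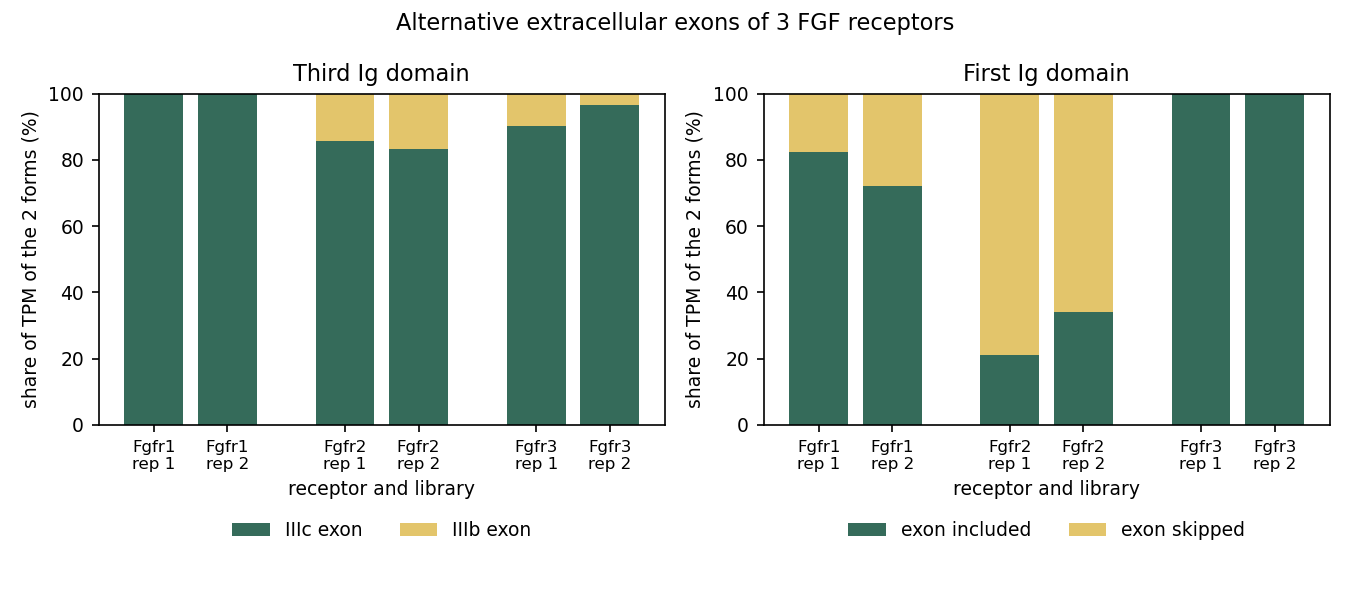
Share of transcript TPM in percent, on the vertical axis, by receptor and library, for the forms of the third Ig domain (left; green IIIc, yellow IIIb) and of the first (right; green exon included, yellow exon skipped). IIIc fills at least 83.2% of each bar on the left, while inclusion of the first Ig exon runs from 21.2% to 100% on the right.

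The exon of the first Ig domain, whose loss leaves a shorter receptor with higher ligand affinity, was included to different extents. This exon was looked at after the transcript values had been seen. It lies at chr8:25555469-25555774 in Fgfr1, chr7:130242378-130242644 in Fgfr2 and chr5:33727647-33727916 in Fgfr3. Shares here are of the TPM of transcripts that tell the forms apart, which leaves out 26.1% and 22.4% of Fgfr1 TPM, 49.2% and 45.0% of Fgfr2 and 15.0% and 12.5% of Fgfr3. On that base Fgfr1 included the exon at 82.3% and 72.0%, or 77.2% ± 7.29 (SD, n = 2), Fgfr2 at 21.2% and 34.1%, or 27.6% ± 9.14, and Fgfr3 at 100% in both libraries. The values of the 3 receptors did not overlap. No annotated Fgfr3 transcript in this count skips the exon, so the Fgfr3 value follows from the annotation.

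Fgfr2-217, a transcript annotated as protein-coding, was among the Fgfr2 transcripts that lacked the extracellular Ig exons altogether. Fgfr2-217 had 5.71 and 6.63 TPM, which is 26.1% and 23.4% of the gene. Its 7 exons begin within Ctbp2, with the first at chr7:133123141-133123350, 2815 kb from the other Fgfr2 transcripts, and 2 of them lie within the bounds of Ctbp2, a transcriptional corepressor gene on the same strand with 66.49 and 68.76 TPM. Reads in the shared part of the locus cannot be told apart between these genes. Transcripts annotated as retaining an intron held 20.8% ± 0.098 of Fgfr1 TPM, 21.5% ± 2.27 of Fgfr2 and 12.6% ± 1.33 of Fgfr3 (SD, n = 2), beside a median of 9.75% over 5323 detected protein-coding genes with such a transcript. Those receptor shares lay at percentiles 71.6, 72.6 and 56.7 of these genes. The feedback gene Spred3 was higher, at 22.9% and percentile 74.3, so the trait was not particular to the receptors.

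All 10 measured feedback genes and targets were detected. Spry2, a Sprouty inhibitor of Ras-MAPK signalling, had 31.84 and 34.32 TPM and held 83.1% ± 2.86 of Sprouty RNA (SD, n = 2). Spry1 had 4.68 and 3.53, and Spry4 had 2.76 and 2.48. Dusp6, the phosphatase that inactivates ERK, had 21.47 and 21.28, close to equal in both libraries. Among the Spred inhibitors, which act on Raf activation, Spred1 had 5.86 and 7.45, Spred2 4.98 and 4.83, and Spred3 5.47 and 5.59. Among the ETS factors Etv1 had 14.95 and 21.03 TPM, Etv5 had 14.45 and 15.42, and Etv4 had 3.63 and 5.16. The values of Etv1 and Etv5 overlapped between libraries, while Etv4 was the lowest of these 3 genes in both, at 11.7% ± 0.998 of their sum (SD, n = 2).

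The leading transcript of a gene held a median of 61.3% ± 4.29 of its TPM (SD, n = 2) over the 18 detected genes with more than 1 annotated transcript. It was the same transcript in both libraries for 15 of the 18. Etv5-201 held 98.8% ± 1.71 of Etv5 and Fgf3-201 held 89.3% ± 3.74 of Fgf3 (SD, n = 2), whereas Etv1 was spread over several forms, with Etv1-203 at 30.2% ± 3.89. For Fgfr3 the leading form changed between libraries: Fgfr3-201 held 25.6% and 47.5%, and Fgfr3-209 held 35.8% and 26.4%. Both of these forms carry the IIIc exon.

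Most of the surrounding pathway was present. Of 18 measured coreceptors and FGF-binding proteins 16 were detected, led by the glypicans Gpc2 at 178.92 and 169.73 TPM and Gpc3 at 88.42 and 89.01, heparan sulfate proteoglycans of the cell surface, with Fgfbp1 the lowest detected at 2.25 and 2.02. The klotho genes, coreceptors that the endocrine FGFs need, were not detected: Kl had 0.64 and 0.52 TPM and Klb had 0.01 and 0.02. Enzymes that make or edit heparan sulfate were detected in 13 of 14 cases, led by the sulfatases Sulf2, at 99.90 and 77.54, and Sulf1, at 63.14 and 52.38, which remove sulfate groups that FGFs bind, with Ndst4 the lowest detected at 2.42 and 2.24. All 12 adaptors were detected, from Grb2, which links receptors to Ras, at 152.97 and 143.47 TPM to Sos1 at 5.81 and 5.68, with Crk at 97.60 and 96.95. All 13 Ras-MAPK genes were detected, from the kinase genes Araf, at 232.55 and 228.06, and Map2k2, at 183.55 and 180.51, to the scaffold Ksr1 at 2.04 and 2.21. Of 7 further feedback genes 6 were detected, led by the phosphatases Dusp4, at 66.78 and 62.64, and Dusp14, at 8.11 and 10.58, with Dusp5 the lowest detected at 1.88 and 1.28.

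Between the 2 libraries Fgf3, Fgf17, Fgf15 and Fgf10 had the largest differences among the members called. A two-sided exact binomial test on rounded counts, scaled by the TMM method and adjusted over the 19687 genes with 10 or more counts summed over the pair, called 7 of 30 tested members higher in replicate 2 and 1 lower. Of all genes tested, 6.85% were called higher and 5.29% lower. The higher genes were Fgf3, Fgf15, Fgf17, Fgfr1, Fgfr2, Spred1 and Etv1, and the lower one was Fgf10. The test sets 1 library against another rather than conditions, and its p-values cover the error of counting alone. With a difference of at least 1.5-fold required as well, 4 members remained, namely Fgf3, Fgf15, Fgf17 and Fgf10, all of them ligands, against 2.93% of all genes (1.65% higher and 1.28% lower). An exact test in edgeR with the common dispersion of these same libraries, a biological coefficient of variation of 6.30%, called 5 members, against 1.94% of all genes: those 4 and Fgfr2.

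Fgf3, at 10.95 and 24.25 TPM, differed by 1.10 on the log2 scale (95% interval 0.95 to 1.26, adjusted p = 2.31e-45 by the exact binomial test). Its deposited TPM intervals, 9.63 to 12.3 and 21.9 to 25.8, did not overlap. Fgf15, at 29.86 and 48.81 TPM, differed by 0.73 (0.62 to 0.84, adjusted p = 1.79e-39 by the exact binomial test). An antisense gene over Fgf15, Gm26793, had 5.63 and 10.71 TPM on 306 and 688 counts and moved the same way, and since the strand setting of the counting is not given in the sources used here, reads of the pair cannot be told apart. Fgf17, at 2.50 and 4.59 TPM on 82 and 178 counts, differed by 0.90 (0.51 to 1.29, adjusted p = 6.41e-05 by the exact binomial test). Fgf10, at 3.23 and 1.87 TPM on 268 and 183 counts, differed by -0.77 (-1.05 to -0.49, adjusted p = 1.12e-06 by the exact binomial test). These 4 ligands kept their calls and direction under every scaling that was tried and under the edgeR exact test. Most of these scalings were nearly the same. The log2 ratio of Fgf3 was 1.103 by TMM, 1.103 by DESeq2 size factors and 1.097 by total counts, and 0.961 by spike-in counts. The edgeR dispersion came from the same libraries that were compared, so that test is not independent support.

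The receptor and feedback genes called had smaller ratios than those 4 ligands. Fgfr2, at 21.90 and 28.30 TPM, had a log2 ratio of 0.48 (0.38 to 0.59), and Etv1, at 14.95 and 21.03, one of 0.47 (0.35 to 0.60). Spred1 had 0.30 (0.16 to 0.44) and Fgfr1 0.16 (0.08 to 0.24). Fgfr1 and Spred1 were no longer called when libraries were scaled by spike-in counts, at log2 ratios of 0.02 and 0.16, and neither they nor Etv1 were called by edgeR's exact test. Spry1 had a log2 ratio of -0.39 (-0.67 to -0.11) with an adjusted p of 0.0506 by the exact binomial test, just past the threshold, while its deposited intervals, 4.00 to 5.19 and 3.01 to 3.96, did not overlap. By that criterion 6 members were higher in replicate 2 and 2 lower among the 25 with a mean of at least 1 TPM, beside 4.45% and 4.82% of all such genes. Fgf9, Fgf13, Fgf14, Fgfr3, Spry2 and Dusp6 had log2 ratios between -0.15 and 0.13 and were not called. Scaling by spike-in counts moved the log2 ratio of every gene by -0.14, and 37.0% of all tested genes were then called lower in replicate 2 and 2.66% higher. Under it 5 members were called higher and 8 lower: Fgf10, Spry1, Spred2 and all of the 6 genes just named except Spry2. The share of members called lower was thus no greater than that of all genes.

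**Figure D4:**
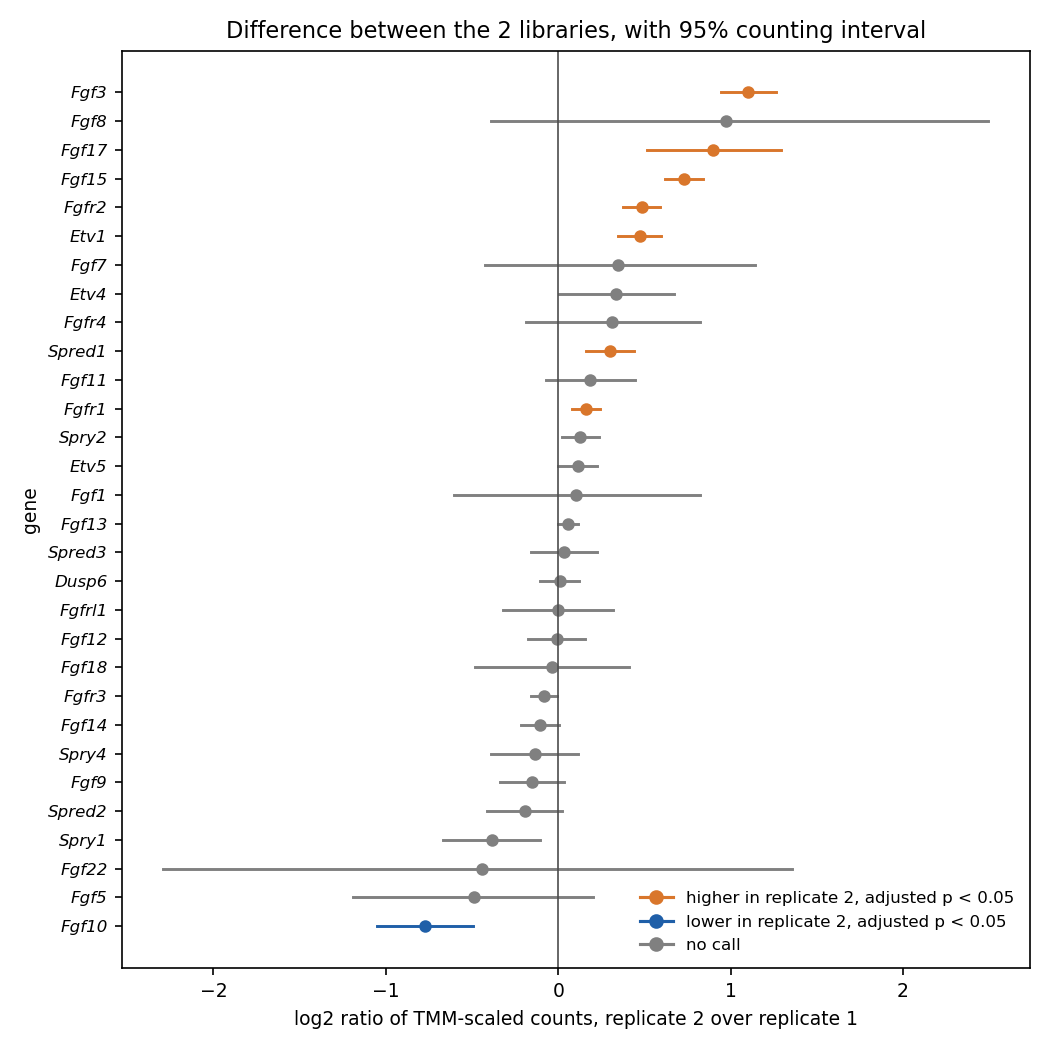
Log2 ratio of scaled counts, replicate 2 over replicate 1, on the horizontal axis for the 30 tested members, sorted by ratio. Points are estimates, bars are exact 95% intervals for counting error, and colour shows the call of the exact binomial test. Fgf3 at 1.10 and Fgf10 at -0.77 bound the range, and Fgf8, Fgf22 and Fgf7 have wide bars at low counts.

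Marker genes of several cell types and regions also differed between the libraries, in both directions, and their part in the result was not tested. Of all tested genes, 6.85% were called higher and 5.29% lower in replicate 2. Among genes detected in both libraries 13.8% were called either way. Of 8 choroid plexus markers 6 were higher in replicate 2, 5 of them by 1.5-fold or more, and none was at 0. Their summed level was 650.83 TPM in replicate 1 and 1209.3 in replicate 2, led by Ttr, the transthyretin gene, at 532.53 and 1022.20, then Enpp2 at 49.77 and 61.09, with Prlr the lowest at 0.31 and 0.60. Choroid plexus was not alone in this. Among 7 skeletal muscle and 5 epithelial markers, 4 and 2 were also higher, 2 in each list by 1.5-fold or more. Of 8 meningeal and mesenchymal markers 5 were lower, with sums of 749.13 and 580.15 TPM, none at 0, Col3a1 at 277.29 and 228.73, Col1a1 at 176.26 and 104.22, and Foxc1, the lowest, at 2.04 and 1.56. Of 9 boundary markers 3 were lower and none higher: En1 had 6.33 and 3.21 TPM, Pax5 5.10 and 2.23, and Pax8 33.46 and 26.59, while Gbx2 had 44.96 and 44.79 and En2 was lowest at 0.58 and 0.48. The list summed to 130.69 and 118.85 TPM. Fgf17, a ligand of the same boundary, was higher in the library where En1, Pax5 and Pax8 were lower. The other boundary markers were not called and went both ways. Their log2 ratios were 0.35 for Wnt1, 0.085 for Otx2, 0.024 for Gbx2, 0.016 for Pax2, -0.061 for Lmx1b and -0.26 for En2. Fgf8, on 7 and 16 counts, had a log2 ratio of 0.97 and was not called. Whether Fgf17 RNA came from the boundary was not tested. Of the 10 hindbrain markers 4 were higher and 2 lower, with sums of 493.93 and 458.46, Meis2 at 143.28 and 113.18, Gata3 at 48.36 and 26.17, and Egr2, the lowest, at 3.34 and 3.06. Progenitor markers were higher in 6 of 8 cases and lower in 2, with sums of 2791.08 and 3066.73 TPM, led by Fabp7 at 1787.27 and 2042.42 and Vim at 600.66 and 625.22, with Sox2 lowest at 11.95 and 13.75. Neuronal markers were higher in 1 case and lower in 4, with sums of 4394.89 and 4221.21, led by Tubb3 at 1543.22 and 1475.19 and Stmn2 at 911.11 and 868.90, with Elavl3 lowest at 50.04 and 50.05. The median log2 ratio was 0.16 for progenitor and -0.042 for neuronal markers. None of either list reached 1.5-fold with a call or was called by edgeR's exact test. At such high counts the binomial test calls small ratios, as for Tubb3 at -0.045.

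**Figure D5:**
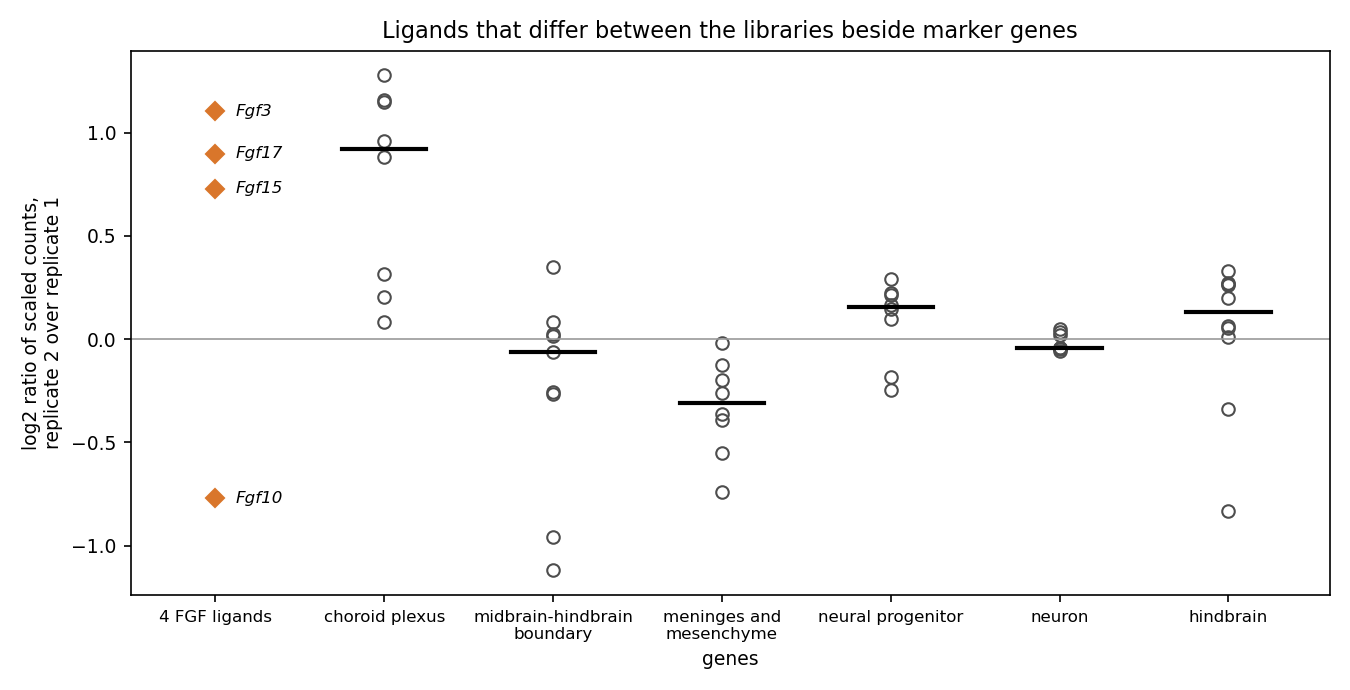
Log2 ratio of scaled counts, replicate 2 over replicate 1, on the vertical axis for the 4 ligands called with at least 1.5-fold difference (diamonds) and for tested genes of 6 marker lists (open circles, with the list's median as a bar). The drawn medians are 0.92 (choroid plexus), 0.16 (neural progenitor), 0.13 (hindbrain), -0.042 (neuron), -0.061 (midbrain-hindbrain boundary) and -0.31 (meninges and mesenchyme). Lists not drawn had medians of 0.62 (skeletal muscle), 0.37 (epithelium), 0.23 (sensory ganglion and ear), 0.11 (erythroid), 0.090 (endothelium) and -0.28 (forebrain).

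The pathway lists held smaller differences, and no gene in them was called with a 1.5-fold difference. Of all tested genes, 6.85% were called higher and 5.29% lower. Among genes detected in both libraries 13.8% were called either way. Of the 17 tested coreceptors and binding proteins 3 were lower in replicate 2 (Fgfbp3, Sdc3 and Cnpy1) and none higher. Of the 14 heparan sulfate enzymes 5 were lower, Sulf2 and Sulf1 among them, and 1 higher, Hs3st1. Of the 12 adaptors 2 were called, Grb2 and Frs3, both lower. Hras was the only one of 13 Ras-MAPK genes called and Dusp14 the only one of 7 further feedback genes, both higher. Of the 5 listed partners of the intracellular FGFs, Mapk8ip2 was called, lower. None of these calls was made by edgeR's exact test. Among the compared families, 5 of 17 tested Wnt ligands were higher and none lower, with Wnt3a, at 1.15 and 3.36 TPM, past 1.5-fold. Of 22 tested BMP and TGF-beta ligands 2 were higher, Gdf5 at 1.63 and 2.95 and Bmp3 at 0.72 and 1.51, and 1 lower, Bmp2.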

How the data were processed

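Each library came with values per gene and per transcript, which the authors derived from transcriptome alignments (mm10, GENCODE M4), per their deposited notes. Estimated counts (expected counts) were deposited as reads assigned per gene or transcript. TPM and FPKM were deposited by the authors as length-corrected levels, TPM relative to all rows, spike-ins included. Transcripts also carry their percent of the gene's TPM, as deposited by the authors. The bounds of credibility intervals of TPM and FPKM, handled as a score because they sum to no fixed total, were deposited without their level; they surround a posterior mean, so a TPM can lie outside its interval. Which aligner, counter and strand setting were used is not given in the sources used here.

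The members, lists and tests were chosen with earlier results of these data known. All members are named; of the other lists described with values, the 2 highest, the lowest detected (of marker lists, the lowest) and those called with 1.5-fold or more, plus marker genes set beside a member. Genes outside that rule that make up a small count were named after their values were seen. Symbols and exons came from GENCODE M21 on GRCm38, the build of mm10: 37 of 38 members matched, and 158 of 160 member transcripts, 20 of them with another length than in the tables. Spry3, Anos1 and Gdf1 were not analysed here. Of the remaining marker lists, skeletal muscle had 3 of 7 detected and 4 higher in replicate 2, epithelium 4 of 5 and 2 higher, sensory ganglion and ear 6 of 7 and 2 higher, endothelium 1 higher, and erythroid 3 higher and 1 lower.

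Counts were rounded to whole numbers. A quasi-likelihood test cannot be run on 1 group, so each gene's counts were tested with a two-sided exact binomial test (SciPy 1.17.1) given TMM effective library sizes (edgeR 4.0.16, R 4.3.3), for genes reaching 10 counts over both libraries, and called at a Benjamini-Hochberg adjusted p of 0.05. Levels were compared as log2(TPM + 1), a scale that understates differences between low genes. IIIb and IIIc exons were found as the upstream and downstream exon of the mutually exclusive pair, and those of Fgfr3 were aligned with MAFFT 7.526. On simulated counts for 19694 genes the binomial test called 90 of 100 genes changed 2-fold, 53 of 100 changed 1.2-fold and 4 of 19494 unchanged genes. These counts were drawn with counting error alone and no spread between replicates, as the test assumes. The simulation therefore cannot show how often the test calls unchanged genes in real replicates, where 12.1% of all tested genes were called. Alternatives were other thresholds, units, pseudocounts, scalings (DESeq2 1.42.0 size factors, total counts, spike-ins) and each library alone. Software was Python 3.11.15 with pandas 2.3.3, numpy 2.4.6 and matplotlib 3.10.9.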

Additional observations from a re-analysis of the deposited data

How the results depend on the processing

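Of the 37 measured genes, 23 to 29 were detected over the thresholds and units tried, and 24 to 25 in either library alone. The receptor minus paracrine ligand difference of 4.07 on the log2(TPM + 1) scale became 5.16 with a pseudocount of 0.1, 3.66 with FPKM, 4.92 with CPM and 2.39 when only genes with a mean of 1 TPM or more entered. It was 3.91 and 4.24 in single libraries. The 7 members higher in replicate 2 became 4 with the edgeR exact test and 3 with a 1.5-fold minimum. The 1 lower member became 2 with total counts, where Spry1 joined Fgf10, and 8 with spike-in scaling, under which 37.0% of all tested genes were called lower. Spike-in scaling moved every log2 ratio by -0.14, and the median of all tested genes from 0.00 to -0.14. It turned the sign of 6 members without a call under TMM, namely Fgf1 (-0.040), Fgf13 (-0.087), Spry2 (-0.013), Spred3 (-0.11), Etv5 (-0.030) and Dusp6 (-0.13). The IIIc share of Fgfr1 was 98.1% with the posterior mean, and that of Fgfr2 was 79.9% with the posterior mean and 88.6% with estimated counts. The cause of these shifts was not tested. No paired analysis was possible because the libraries form a single group. Values from fewer than about 10 counts, as for Fgf22 and Fgf6, are limited by depth.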
